A study of Mus musculus with 18 samples.

Results

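Glucose is taken into the cell by glucose transporters, phosphorylated by hexokinase, and cleaved and oxidized in the cytosol to pyruvate, which lactate dehydrogenase can reduce to lactate. Tumor cells often run this route to lactate even in the presence of oxygen, and many of its genes are direct targets of the hypoxia-inducible factor HIF and of MYC. The genes described here are 10 genes of that route, namely Slc2a1, Hk2, Gpi1, Aldoa, Tpi1, Gapdh, Pgam1, Eno1, Pkm and Ldha. They are picked out by gene name, as a pathway list that was chosen with earlier results of these data known. Counts of members called, set beside all genes, are therefore not independent of these data. They are 10 of 19736 gene names in the deposited table and 4553 of its 1825851 positions, and all 10 had rows.

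The data come from ribose oxidation sequencing (RibOxi-seq), in which RNA fragments are oxidized so that those ending in a 2′-O-methylated nucleotide are kept, and the 3′ ends of the reads are counted at each position. Poly(A) RNA came from 4T1 cells, a mouse mammary tumor line, that carry mCherry and Renilla luciferase and were kept in puromycin. The 3 groups are 4T1 WT, Snord67KO-1 and Snord67KO-2, with 3 oxidized libraries each, given as biologic replicates in the study's methods. Both knockouts are single-cell CRISPR/Cas9 clones that lack Snord67, a box C/D small nucleolar RNA that guides 2′-O-methylation of U6 small nuclear RNA. Each knockout group is 1 clone, so a difference between a clone and 4T1 WT cannot be told apart from variation between clones. A gene's summed count can move with the amount of its RNA as well as with its methylation, and in RNA from bulk cells fewer cells that express a gene and less RNA per cell look alike, so these cannot be told apart here. The 9 control samples that were not oxidized were not analysed here.

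Library totals were 625093 to 737219 counts in 4T1 WT, against 491836 to 686776 in Snord67KO-1 and 212463 to 423278 in Snord67KO-2. Levels are given as counts per 1000000 counts of the library (CPM), on which scale 1 count is worth 1.36 to 4.71 CPM. The table marks some positions as mispriming, a term that the sources used here do not define. The marked share was 17.8% in 4T1 WT replicate 2 and 1.38% to 7.22% in the other 8 libraries, so that library stood apart. Read 3′ ends at Snord67 numbered 1 in Snord67KO-1 replicate 1 and 0 in the other 8 libraries, the 3 4T1 WT libraries included, so they do not check the labels. Of 7 epithelial markers all had counts, with Krt18 (1688) and Krt8 (843) highest, against sums of 45, 5 and 13 counts for endothelial, liver and fat cell markers, where Apoa1 and Adipoq were at 0. Endothelial markers summed to 4.70 to 5.43 CPM in 4T1 WT, against 8.74 to 31.2 in Snord67KO-1 and 0 to 5.42 in Snord67KO-2, and liver and fat cell markers to at most 7.42 and 11.9 CPM, both in a Snord67KO-1 library. The summed epithelial markers were 298 to 554 CPM in 4T1 WT, against 864 to 950 in Snord67KO-1 and 616 to 709 in Snord67KO-2. They were thus also higher in the knockouts. The part of these markers in the results below was not tested.

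The positions with the highest counts show what the table holds for these genes. Each is shown as 21 bases of the GENCODE M21 transcript on GRCm38, 5′ to 3′, with capitals for the counted base and the 3 bases after it. These 10 are shown because they lead their gene, carry the marking, or both:
Eno1 locus, chr4:150242133 (plus strand, exon 4, coding, marked, 1013 counts): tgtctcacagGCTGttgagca
Tpi1, chr6:124811298 (minus strand, exon 7, coding, unmarked, 148 counts): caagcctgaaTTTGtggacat
Aldoa, chr7:126796101 (minus strand, exon 7, coding, unmarked, 42 counts): tctacaaggcTCTGagcgacc
Aldoa, chr7:126795652 (minus strand, exon 8, coding, marked, 30 counts): agaaggagaaCCTGaaggcag
Pkm, chr9:59669002 (plus strand, exon 5, coding, marked, 37 counts): acgagaacatCCTGtggctgg
Pgam1, chr19:41915715 (plus strand, exon 2, coding, unmarked, 37 counts): agtggtcaggACTTggcgcct
Pgam1, chr19:41918409 (plus strand, exon 4, 3′ UTR, marked, 30 counts): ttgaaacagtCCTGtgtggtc
Ldha, chr7:46851935 (plus strand, exon 6, coding, unmarked, 26 counts): ttaacccagaACTGggcactg
Hk2, chr6:82726853 (minus strand, exon 18, 3′ UTR, marked, 21 counts): ttcagctcaaCCTGtaggcat
Slc2a1, chr4:119136739 (plus strand, exon 10, 3′ UTR, marked, 9 counts): ctatctccacACTGtagtctt

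The bases after the counted one differed with the marking. Among exonic positions with a count in the members and the whole Eno1 locus, 70 of 96 marked positions (72.9%) were followed by CTG, against 3.32% of 3463 unmarked positions. The leading positions of Aldoa and Ldha were followed by CTG without being marked. The 148-count position of Tpi1 was not. The 3′ linker listed in the study's supplement also begins with CTG, and whether the marking relates to it was not tested.

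Most counts on the 10 genes were not at such positions. The members held 4856 counts at 3046 positions, and 2247 of these positions had a single count over the 9 libraries. Positions with 1 to 3 counts held 77.2% of the members' counts, and 1 position among the rows named for a member, the one in Tpi1, had at least 10 counts in at least 3 libraries. The 1013-count position of the Eno1 locus is listed under another name, as described with Eno1, and is not in these sums. Coding sequence held the larger part of the counts in Pkm (1103 of 1554), Ldha (556 of 826), Aldoa (472 of 639), Tpi1 (380 of 518) and Gpi1 (234 of 322), whereas the 3′ UTR held 339 of 652 in Pgam1, 74 of 136 in Hk2 and 49 of 108 in Slc2a1.

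Over the rows that carry their names, the summed level of the 10 genes was higher in both clones. It was 726, 751 and 517 CPM in the 4T1 WT libraries, 1247, 1259 and 1283 in Snord67KO-1, and 937, 1172 and 1292 in Snord67KO-2. All 6 knockout libraries lay above the highest 4T1 WT library, with the shallowest, Snord67KO-2 replicate 1, the lowest of the 6. As shares of the library total these are 0.0726%, 0.0751% and 0.0517% in 4T1 WT, 0.125%, 0.126% and 0.128% in Snord67KO-1, and 0.0937%, 0.117% and 0.129% in Snord67KO-2. The mean CPM was 1.90 times that of 4T1 WT in Snord67KO-1 and 1.71 times in Snord67KO-2. Without marked positions the means were 583 ± 82.7, 1182 ± 63.9 and 1091 ± 177 CPM (SD, n = 3 each), or 2.03 and 1.87 times. The sum is a description and was given no test. Pkm made up 38.8% of the difference in the sum between the 6 knockout libraries and 4T1 WT, Ldha 21.5% and Aldoa 16.6%, while Hk2 gave a difference of −5.97 CPM.

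**Figure D1:**
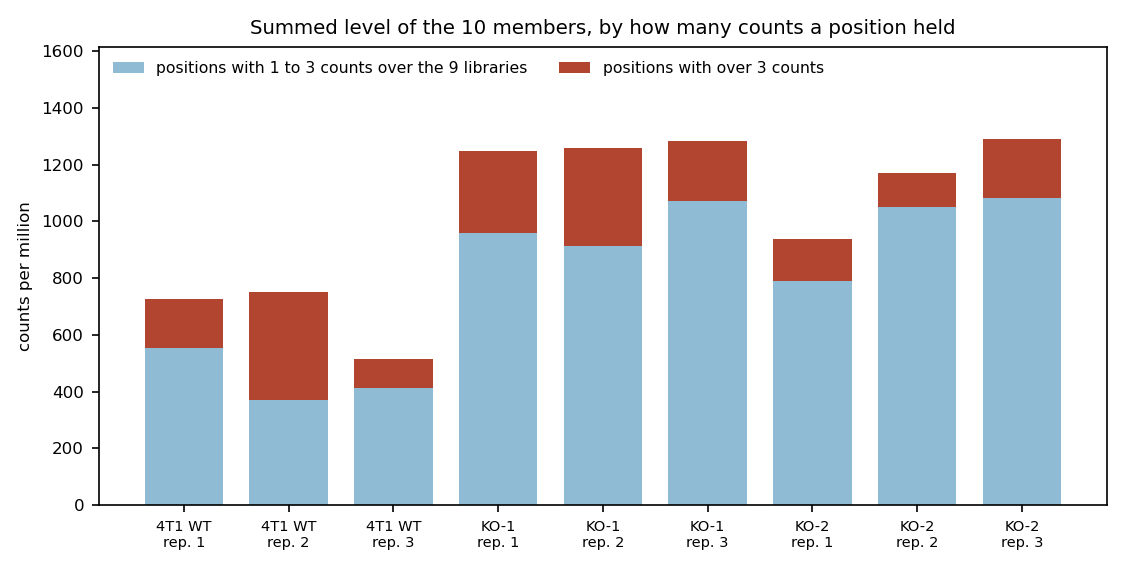
Stacked bars give, for each of the 9 oxidized libraries, the summed CPM of the 10 members at positions that held 1 to 3 counts over all libraries (blue) and at positions that held more (red). The blue part is 371 to 555 CPM in 4T1 WT and 791 to 1082 CPM in the knockout libraries, and the red part overlaps between the groups.

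The sum was also split by how many counts a position held over the 9 libraries, a split made on the same counts. At positions with 1 to 3 counts over the 9 libraries, a limit chosen after the data were examined, the 10 genes summed to 446 ± 96.7 CPM in 4T1 WT, against 982 ± 80.6 in Snord67KO-1 and 974 ± 159.7 in Snord67KO-2 (SD, n = 3). At the 130 positions with more counts the sums were 219 ± 144, 280 ± 66.4 and 159 ± 45.6 CPM, and the groups overlapped. That overlap rested in part on 4T1 WT replicate 2, at 380.3 CPM. Without it, a setting added after the data were examined, the 4T1 WT libraries had 106 and 171 CPM, below the 211 to 344 of Snord67KO-1 (2.03 times as a mean) and overlapping the 122 to 210.3 of Snord67KO-2 (1.15 times). Over all genes, such sparse positions held 22.5% to 25.6% of the counts of a 4T1 WT library, 28.0% to 36.3% in Snord67KO-1 and 21.9% to 27.8% in Snord67KO-2, so in Snord67KO-1 the whole table shifted the same way and in Snord67KO-2 the ranges overlapped. With marked positions and unmarked positions followed by CTG both left out, the 10 genes summed to 539 ± 71.7, 1113 ± 74.2 and 1054 ± 170 CPM.

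Each gene was then tested by its summed count with edgeR's quasi-likelihood test, in 1 fit of the 9 libraries over the 6291 genes that reached 10 counts in 3 or more libraries. A gene was called at an adjusted p (Benjamini-Hochberg over all 6291) under 0.05. Of the 10 members 9 were tested, and Eno1 fell below the filter. Slc2a1 passed it through knockout libraries alone, with 6 to 8 counts in each 4T1 WT library, so its passing is not independent of its difference. In Snord67KO-1, 5 of the 9 were called higher and 0 lower, where 10.0% of all genes tested were called higher and 8.17% lower. In Snord67KO-2, 4 of the 9 were called higher and 0 lower, against 2.43% and 0.747% of all genes. With both clones averaged against 4T1 WT, 6 of the 9 were called higher and 0 lower, against 6.20% and 5.87% of all genes. The 3 comparisons share the 4T1 WT libraries and are not independent of each other. Slc2a1, Aldoa, Pkm and Ldha were called in both clones, and these 4 made up 80.5% of the difference in the sum. Slc2a1, with the limit given above, is included in every tally of this paragraph and in its median. The median log2 fold change of the 9 tested members was 0.74 in Snord67KO-1 and 1.11 in Snord67KO-2, beside −0.04 and −0.03 over all genes tested. A larger share of genes was called where counts were higher. With at least 50 counts in 3 libraries, which left out Slc2a1, 1079 genes were tested. Of these, 151 were called higher and 126 lower in Snord67KO-1, and 91 and 46 in Snord67KO-2. The members called then were Aldoa, Ldha, Pkm and Tpi1 in Snord67KO-1 and Aldoa, Ldha and Pkm in Snord67KO-2. In CPM, 5 members (Slc2a1, Aldoa, Tpi1, Pkm and Ldha) had every knockout library above every 4T1 WT library, as did 4.34% of the genes tested, and the number was also 5 without marked positions.

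**Figure D2:**
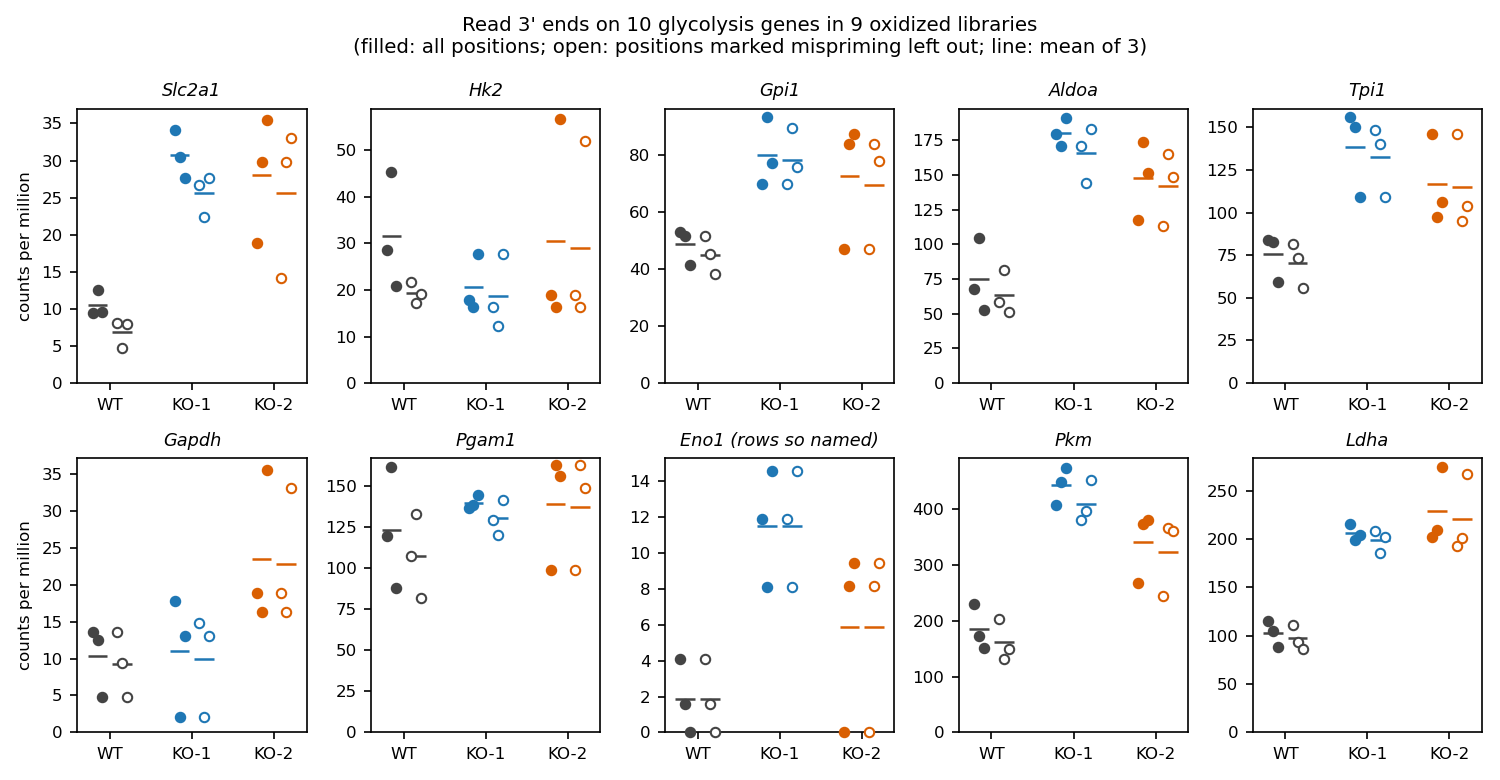
Each panel gives 1 member in pathway order, with the CPM of every library (points) and the mean of 3 libraries (line) for 4T1 WT, Snord67KO-1 and Snord67KO-2, over all positions (filled) and with positions marked mispriming left out (open). All 6 knockout points lie above the 4T1 WT points for Slc2a1, Aldoa, Tpi1, Pkm and Ldha, and the groups overlap for Hk2, Gpi1, Gapdh, Pgam1 and the rows named Eno1.

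Slc2a1 (chr4:119108711-119137983, plus strand) encodes GLUT1, the transporter that brings glucose into most cells. It had 9.495, 12.5 and 9.60 CPM in 4T1 WT, 34.1, 30.5 and 27.7 in Snord67KO-1, and 18.8, 29.8 and 35.4 in Snord67KO-2. The lowest knockout library was above the highest 4T1 WT library. On the log2 scale the fold change was 1.41 ± 0.33 (SE) in Snord67KO-1 (edgeR adjusted p = 0.00763) and 1.68 ± 0.37 in Snord67KO-2 (adjusted p = 0.0174). The call in Snord67KO-2 was lost without 4T1 WT replicate 1 (edgeR adjusted p = 0.0520), without Snord67KO-2 replicate 2 (0.0966) or replicate 3 (0.113), and with library totals in place of TMM normalization (0.106). These are small counts, 108 in all. An antisense gene, Gm12868, overlaps the 3′ part of Slc2a1 on the other strand, and 74 of the 108 counts lay in the overlap. The sources used here do not say whether strand was used in counting, so reads of the pair cannot be told apart. No stretch of 30 bases of the Slc2a1 transcript occurs in another annotated gene.

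Hk2 (chr6:82725025-82774454, minus strand) encodes hexokinase 2, which traps glucose in the cell as glucose 6-phosphate. It had 28.5, 45.4 and 20.8 CPM in 4T1 WT, 17.8, 16.3 and 27.7 in Snord67KO-1, and 18.8, 16.3 and 56.7 in Snord67KO-2. The groups overlapped, and Snord67KO-2 replicate 3 was the highest library. The log2 difference was −0.68 ± 0.38 in Snord67KO-1 and 0.28 ± 0.39 in Snord67KO-2, and neither was called (edgeR adjusted p = 0.227 and 0.754). The marked position shown above took 4, 12 and 0 of the counts in 4T1 WT, 1, 2 and 0 in Snord67KO-1, and 0, 0 and 2 in Snord67KO-2, most of them in the library with the high marked share. Without marked positions the mean was 19.4 CPM in 4T1 WT, against 18.7 in Snord67KO-1 and 29.03 in Snord67KO-2.

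Gpi1 (chr7:34201330-34230336, minus strand) encodes glucose 6-phosphate isomerase, which makes fructose 6-phosphate. Its level was 52.9, 51.7 and 41.6 CPM in 4T1 WT, 69.8, 93.5 and 77.2 in Snord67KO-1, and 47.1, 84.1 and 87.4 in Snord67KO-2. Snord67KO-2 replicate 1 lay within the 4T1 WT range and the other 5 knockout libraries above it. The log2 fold change was 0.58 ± 0.24 and 0.84 ± 0.26 in the clones, not called in either (edgeR adjusted p = 0.111 and 0.0850), and 0.71 ± 0.22 for both clones together (adjusted p = 0.0437). The call for both clones was lost in 7 of 9 fits that each left out 1 library, with adjusted p of 0.0609 to 0.141, without marked positions (0.0569), with DESeq2 (0.146), with library totals (0.124) and with no low-count filter (0.192). The position with the most counts, chr7:34230074, lies in an intron that the long noncoding RNA gene Gm26762 overlaps on the other strand. It held 6, 4 and 4 counts in 4T1 WT, 0, 0 and 2 in Snord67KO-1, and none of the Snord67KO-2 libraries had a count there. With exonic positions alone Gpi1 was called in both clones, at a log2 fold change of 0.93 in Snord67KO-1 (edgeR adjusted p = 0.0179) and 1.07 in Snord67KO-2 (0.0291).

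Aldoa (chr7:126795234-126800751, minus strand) encodes aldolase A, which cleaves fructose 1,6-bisphosphate. Its level was 67.8, 105 and 52.8 CPM in 4T1 WT, 179.6, 171 and 191 in Snord67KO-1, and 118, 174 and 151 in Snord67KO-2. The groups did not overlap, although the highest 4T1 WT library, replicate 2, came close to the lowest Snord67KO-2 library. As log2 fold change, the fit gave 1.17 ± 0.22 in Snord67KO-1 (edgeR adjusted p = 0.00148) and 1.26 ± 0.23 in Snord67KO-2 (0.00495). The call in Snord67KO-2 was lost without Snord67KO-2 replicate 2 (adjusted p = 0.0575) and with library totals in place of TMM (0.121). The protein-coding gene Fam57b overlaps Aldoa on the other strand, and 98 of the 639 Aldoa counts lay in the overlap. As for Slc2a1, reads of the pair cannot be told apart there. The 42-count position, unmarked and followed by CTG, held 24 of its counts in 4T1 WT replicate 2. Without it and all other positions that were marked or followed by CTG, the mean was 47.8 ± 4.90 CPM in 4T1 WT, against 149 ± 22.7 in Snord67KO-1 and 137 ± 25.0 in Snord67KO-2.

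Tpi1 (chr6:124810586-124814296, minus strand) encodes triosephosphate isomerase, which interconverts the 2 triose phosphates. Its level was 84.1, 83.0 and 59.2 CPM in 4T1 WT, 156, 150.5 and 109 in Snord67KO-1, and 146, 97.6 and 106 in Snord67KO-2. Every knockout library was above every 4T1 WT library. The log2 fold change was 0.74 ± 0.25 in Snord67KO-1 (edgeR adjusted p = 0.0457), 0.86 ± 0.26 in Snord67KO-2 (0.0842, not called) and 0.80 ± 0.22 for both clones (0.0287). The call in Snord67KO-1 was lost in 7 of 9 fits without 1 library (adjusted p of 0.0507 to 0.124), and that for both clones without 4T1 WT replicate 2 (0.0732), 4T1 WT replicate 3 (0.0549), Snord67KO-1 replicate 1 (0.0532) or Snord67KO-2 replicate 1 (0.0584). With DESeq2 neither was called (adjusted p = 0.113 and 0.0580), nor with no low-count filter (0.121 and 0.0771), and the call for both clones was lost with library totals (0.0793).

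Among the rows named for a member, the Tpi1 position at chr6:124811298 had the highest count and was the one that passed the filter for a test against the rest of its gene. It held 18, 29 and 13 counts in 4T1 WT, 42, 27 and 4 in Snord67KO-1, and 2, 0 and 13 in Snord67KO-2. This was 39.5% of the Tpi1 counts of 4T1 WT, 28.7% of those in Snord67KO-1 and 13.4% in Snord67KO-2, with wide spread among libraries. Relative to the rest of Tpi1, the log2 difference was −0.70 ± 1.00 in Snord67KO-1, −2.15 ± 1.12 in Snord67KO-2 and −1.42 ± 0.88 for both clones (edgeR adjusted p = 0.855, 0.332 and 0.389). Across the table, 0 of 2051 positions (0%) were called by edgeR in each of the 4 comparisons, while 110 had an unadjusted p under 0.05 in Snord67KO-1, 354 in Snord67KO-2, 356 for both clones and 43 between the clones. No other tool was run on positions. No other position named for a member reached 10 counts in 3 libraries.

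Gapdh (chr6:125161715-125166467, minus strand) encodes glyceraldehyde 3-phosphate dehydrogenase, the oxidizing step of the pathway and a common reference transcript. It had only 68 counts, at 13.6, 12.5 and 4.80 CPM in 4T1 WT, 17.8, 2.03 and 13.1 in Snord67KO-1, and 18.8, 16.3 and 35.4 in Snord67KO-2. The Snord67KO-2 libraries were above those of 4T1 WT and the Snord67KO-1 libraries spanned them. The fitted log2 fold change was 0.04 ± 0.52 in Snord67KO-1 and 1.44 ± 0.52 in Snord67KO-2 (edgeR adjusted p = 0.976 and 0.137). Of the Gapdh transcript, 92.2% of 30-base stretches occur in other annotated genes, 336 in number, and how multi-mapping reads were handled is not given in the sources used here, so the level of Gapdh is uncertain.

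Pgam1 (chr19:41911923-41918660, plus strand) encodes phosphoglycerate mutase 1. It had 119, 161 and 88.0 CPM in 4T1 WT, 137, 138 and 144 in Snord67KO-1, and 98.8, 163 and 156 in Snord67KO-2. The groups overlapped throughout. The log2 fold change was 0.08 ± 0.21 in Snord67KO-1 and 0.46 ± 0.22 in Snord67KO-2 (edgeR adjusted p = 0.825 and 0.258). The unmarked position at chr19:41915715 held 25 of its 37 counts in 4T1 WT replicate 2. With positions marked or followed by CTG left out, the means were 104 ± 21.9, 126 ± 11.0 and 135 ± 32.1 CPM, still overlapping.

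Eno1 (chr4:150236721-150248879, plus strand) encodes enolase 1, which makes phosphoenolpyruvate, and the rows that carry its name are a small part of its locus. They cover 41 positions of exon 1 in the 5′ UTR, from 150237232 to 150237323, and held 3, 1 and 0 counts in 4T1 WT, 8, 4 and 10 in Snord67KO-1, and 0, 3 and 4 in Snord67KO-2. At 33 counts they were not tested. The rest of the locus, 1023 positions with 2666 counts, was listed under the name Eno1b, which is also the name of a near-identical copy on another chromosome. Of 867 positions of the locus whose 30 bases, ending at the position, matched 1 listed position of that copy, 832 (96.0%) had the same count in all 9 libraries at both places. Positions without a count at either place are included, and of the 1018 positions of the copy 749 had a count.

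Counted by location, whatever the name, the Eno1 locus had 621, 919 and 352 CPM in 4T1 WT, 592, 665 and 374 in Snord67KO-1, and 226, 415 and 591 in Snord67KO-2. The groups overlapped. The log2 difference was −0.29 ± 0.27 in Snord67KO-1 and −0.33 ± 0.27 in Snord67KO-2 (edgeR adjusted p = 0.501 and 0.555), a count by location that was added after the data were examined. The marked position at chr4:150242133 alone held 190, 349 and 71 counts in 4T1 WT, 141, 140 and 23 in Snord67KO-1, and 4, 31 and 64 in Snord67KO-2, or 48.2%, 30.9% and 21.95% of the locus. Without marked positions the levels were 336, 261 and 224 CPM in 4T1 WT, 350, 346 and 333 in Snord67KO-1, and 202, 323 and 411 in Snord67KO-2. The log2 fold change then was 0.07 ± 0.19 and 0.24 ± 0.19 (edgeR adjusted p = 0.834 and 0.570), so leaving out marked positions turned the direction but neither value was called.

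**Figure D3:**
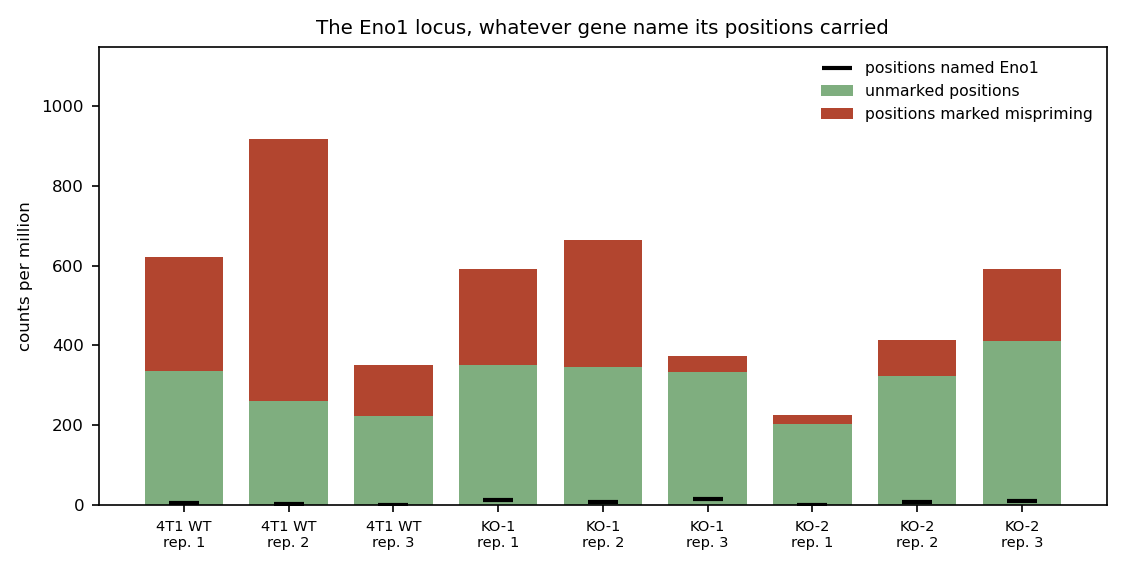
Stacked bars give the CPM of the whole Eno1 locus in each library, from unmarked positions (green) and positions marked mispriming (red), and black dashes give the positions that the table names Eno1. The marked part is 657 CPM in 4T1 WT replicate 2 and 23.5 to 319 CPM in the other libraries, and the named rows are at most 14.6 CPM.

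Pkm (chr9:59656368-59679375, plus strand) encodes pyruvate kinase M, which makes pyruvate and is spliced into the M1 and M2 forms. It had the highest count of the named members, with 231, 174 and 152 CPM in 4T1 WT, 408, 449 and 475 in Snord67KO-1, and 268, 374 and 380 in Snord67KO-2. Every knockout library was above every 4T1 WT library, and all Snord67KO-1 libraries were above all Snord67KO-2 libraries on this scale. On the log2 scale the fold change was 1.12 ± 0.22 in Snord67KO-1 (edgeR adjusted p = 0.00265) and 1.11 ± 0.23 in Snord67KO-2 (0.0128). The call in Snord67KO-2 was lost without Snord67KO-2 replicate 2 (adjusted p = 0.101) or replicate 3 (0.0620) and with library totals in place of TMM (0.106). The counts were spread over 933 positions, and the leading one held 2.38% of them. The gene named Gm49759 overlaps 114 of the counts on the same strand.

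The M1 and M2 forms of Pkm use exon 9 (chr9:59675029-59675195) and exon 10 (chr9:59675568-59675734), which are mutually exclusive and 167 bases long each. Exon 9 and exon 10 held 4 and 5, 1 and 5, and 2 and 4 counts in the 3 4T1 WT libraries. They held 5 and 3, 5 and 5, and 3 and 9 in Snord67KO-1, and 1 and 1, 3 and 3, and 1 and 4 in Snord67KO-2. The share of exon 10 was 68.5% ± 13.98 (SD, n = 3) for 4T1 WT, 54.2% ± 19.1 for Snord67KO-1 and 60.0% ± 17.3 for Snord67KO-2, with overlapping libraries. Over the 6 knockout libraries it differed from 4T1 WT by −11.4 percentage points (two-sided exact permutation test, p = 0.333, adjusted p = 0.500 over 3 comparisons). Each clone against 4T1 WT gave p = 0.400 and 0.500 in the exact permutation test, which cannot go below 0.100 with 3 against 3 libraries. The pooled share of 4T1 WT was 66.7%, with a 95% Wilson interval of 45.4% to 82.8% from 21 counts.

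Ldha (chr7:46841475-46855627, plus strand) encodes lactate dehydrogenase A, which turns pyruvate into lactate. It had 115, 105 and 88.0 CPM in 4T1 WT, 215, 199 and 204 in Snord67KO-1, and 202, 209 and 274 in Snord67KO-2. The knockout libraries were all above those of 4T1 WT. The log2 fold change was 0.86 ± 0.20 in Snord67KO-1 (edgeR adjusted p = 0.00783) and 1.38 ± 0.21 in Snord67KO-2 (0.00149). Both calls were kept in every alternative run, each library left out in turn included. The difference between the clones was 0.52 ± 0.20, not called (adjusted p = 0.169).

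**Figure D4:**
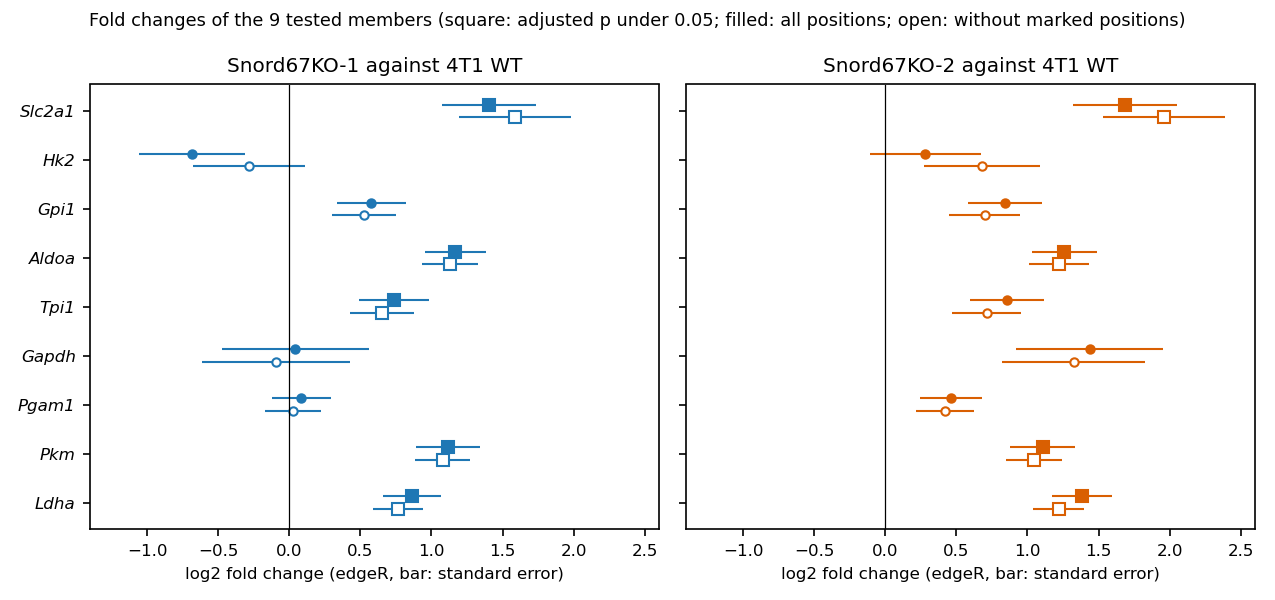
Log2 fold changes of the 9 tested members in Snord67KO-1 (left) and Snord67KO-2 (right) against 4T1 WT from edgeR, with standard errors as bars, over all positions (filled) and without marked positions (open), where squares are adjusted p under 0.05. Slc2a1, Aldoa, Pkm and Ldha are squares in both panels with and without marked positions, and Tpi1 is a square in Snord67KO-1.

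Leaving out marked positions changed few calls. Without them, the 5 members called in Snord67KO-1 and the 4 called in Snord67KO-2 were the same genes, and for both clones Gpi1 was lost. Without marked positions and without 4T1 WT replicate 2, a combination added after the data were examined, Slc2a1, Aldoa, Pkm and Ldha were called in both clones and Tpi1 in neither. Fewer members were called in Snord67KO-2 under another scaling. With library totals in place of TMM, the median log2 difference of all genes tested moved to −0.27 in Snord67KO-2 and 0.08 in Snord67KO-1, and Ldha was the only member called in Snord67KO-2. The calls over all genes moved from 632 higher and 514 lower to 548 and 138 in Snord67KO-1, from 153 and 47 to 30 and 2 in Snord67KO-2, and from 113 and 138 to 27 and 185 between the clones. The CPM values above are on the library-total scale, and the log2 fold changes are on the TMM scale.

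Between the clones, 0 of the 9 tested members were called by edgeR in Snord67KO-2 against Snord67KO-1, where 1.80% of all genes were called higher and 2.19% lower. Of the 9, 3 had an unadjusted p under 0.05, namely Hk2 (log2 difference 0.97 ± 0.42), Gapdh (1.395 ± 0.51) and Ldha (0.52 ± 0.20), all higher in Snord67KO-2. DESeq2 also called 0 members. A p that misses the threshold does not show that the clones were alike for these genes.

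Several members have processed copies elsewhere in the genome, so part of their counts is uncertain. Of the counts in exons, 60.7% in Pkm, 49.3% in Gpi1, 47.6% in Tpi1, 46.7% in Pgam1, 42.9% in Aldoa and 41.3% in Ldha lay where the 30 bases ending there also occur in another annotated gene. At the positions where they do not, Pkm had a mean of 58.2 ± 6.11 CPM in 4T1 WT, against 170.1 ± 19.2 in Snord67KO-1 and 127 ± 28.4 in Snord67KO-2. Ldha had 59.8 ± 13.8, 122 ± 1.17 and 123 ± 30.5 CPM at such positions, and Tpi1 32.5 ± 8.31, 72.8 ± 4.49 and 72.8 ± 23.2. For these 3 genes every knockout library was above every 4T1 WT library. Aldoa had 43.6 ± 18.4, 100.4 ± 4.78 and 82.9 ± 19.2 CPM there, with 5 of 6 knockout libraries above the highest 4T1 WT library. Gpi1 had 16.4 ± 2.04, 36.7 ± 8.76 and 34.8 ± 23.0 CPM, also with 5 of 6 above it. Pgam1 had 60.7 ± 5.06, 72.7 ± 9.67 and 82.9 ± 19.2 CPM, with 4 of 6 above it.

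Levels were compared between genes per length of the whole transcript, which makes no allowance for sequence shared with other genes. In 4T1 WT the whole Eno1 locus had 307 ± 140.0 CPM per kilobase of exon (SD, n = 3), ahead of Pgam1 (68.0 ± 20.7), Pkm (67.8 ± 16.8), Ldha (56.7 ± 7.80), Aldoa (49.4 ± 18.2) and Tpi1 (45.7 ± 9.42). Without its marked positions the Eno1 locus had 132 ± 26.2. From Pgam1 to Tpi1, neighbours in the order differed by less than their spread. Gpi1 followed, apart from Tpi1, at 12.2 ± 2.08, Gapdh at 6.15 ± 2.38, Hk2 at 5.46 ± 2.47 and Slc2a1 at 2.91 ± 0.454 CPM per kilobase. The part of the transcript that also occurs in other annotated genes was 92.2% in Gapdh, 77.5% in Eno1, 52.1% in Pkm and 0% in Slc2a1. Marked positions were left out for the Eno1 locus alone. How far shared sequence and marked positions set this order was not tested, and the low place of Gapdh is uncertain. In Snord67KO-1 the order after the Eno1 locus (265 ± 73.0) was Pkm (172 ± 15.7), Aldoa (117 ± 3.77), Ldha (114 ± 3.34), Tpi1 (85.5 ± 16.1) and Pgam1 (77.5 ± 2.64). In Snord67KO-2 it was Pkm (130.3 ± 24.1), Ldha (128 ± 20.9), Aldoa (96.5 ± 17.7), Pgam1 (78.0 ± 19.5) and Tpi1 (72.1 ± 16.3). Pgam1 thus stood beside Pkm in 4T1 WT and below it in both clones.

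Promoters of the members were searched for ACGTG and GCGTG, the letters at the core of the HIF binding motif, on both strands. Of 16 RefSeq promoters of the 10 members (GRCm38.p6, 250 bases before to 50 after the start), 12 held either (75%), beside 43.8% of 32851 promoters of the same length. The 16 are not independent. The Aldoa windows from 126799129 and 126799205 overlap and share their 1 match. The Eno1 windows from 150236947 and 150236974 overlap and share their 2 matches. CACGTG, the E-box that MYC binds and which overlaps ACGTG, was in 1 of the 16 (6.25%), beside 7.15% of all. Slc2a1, Aldoa, Pkm and Ldha were called in both clones. Of their promoters, that of Slc2a1 and the Ldha one with more matches are shown, and those of Aldoa and Pkm are not. The sequences shown are therefore not a fair sample of the called genes. That of Pgam1 is shown because it holds the letters and the gene was not called. Capitals mark the matches:
Slc2a1, chr4:119108495-119108794, plus strand: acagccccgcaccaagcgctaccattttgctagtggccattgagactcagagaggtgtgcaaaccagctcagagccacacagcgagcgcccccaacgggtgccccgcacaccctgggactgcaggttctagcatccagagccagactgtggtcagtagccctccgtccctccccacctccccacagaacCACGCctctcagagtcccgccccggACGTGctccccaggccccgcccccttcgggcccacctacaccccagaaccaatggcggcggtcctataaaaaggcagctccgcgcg
Ldha, chr7:46845554-46845853, plus strand: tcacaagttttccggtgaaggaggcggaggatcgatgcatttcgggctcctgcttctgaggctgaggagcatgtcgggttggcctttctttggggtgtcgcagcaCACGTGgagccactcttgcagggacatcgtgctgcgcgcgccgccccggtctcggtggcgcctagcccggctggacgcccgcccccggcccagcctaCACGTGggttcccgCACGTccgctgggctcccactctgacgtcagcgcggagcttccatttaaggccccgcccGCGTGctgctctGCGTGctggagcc
Pgam1, chr19:41911621-41911920, plus strand: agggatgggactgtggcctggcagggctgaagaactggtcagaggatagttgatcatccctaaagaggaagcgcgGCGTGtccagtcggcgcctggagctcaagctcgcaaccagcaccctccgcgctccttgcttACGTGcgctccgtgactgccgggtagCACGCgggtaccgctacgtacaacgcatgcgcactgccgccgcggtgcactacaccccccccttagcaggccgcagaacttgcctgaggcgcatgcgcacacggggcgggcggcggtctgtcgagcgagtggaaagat

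The Ldha promoter shown held 7 matches, those of the other strand included, and was the one with CACGTG. The other Ldha promoter, chr7:46846832-46847131, held 2 matches and no CACGTG. Pgam1 held 3 and Slc2a1 held 2. The promoters of Tpi1 and Gpi1 held 0 matches in this window, and the 2 Pkm promoters held 0 and 2. The Aldoa promoters held 1, 1 and 0, the last from 126800398. A match is a string of letters and was given no test against the counts.

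Neighbouring parts of metabolism were counted from gene lists by function, drawn up with earlier results of these data known. Among 19 other genes of glucose uptake and glycolysis in the table, 7 were tested. Pgk1, phosphoglycerate kinase 1, had 117 ± 25.2 CPM in 4T1 WT, against 218 ± 29.99 in Snord67KO-1 and 211 ± 20.8 in Snord67KO-2, with a log2 fold change of 0.72 ± 0.27 (edgeR adjusted p = 0.0711) and 1.04 ± 0.28 (0.0479). Pfkl, the liver form of phosphofructokinase, had 25.4 ± 4.48, 85.4 ± 7.40 and 38.7 ± 14.3 CPM and was called in Snord67KO-1 (log2 1.61 ± 0.24, edgeR adjusted p = 0.000335). In Snord67KO-1 Eno3, the muscle enolase, fell by 1.77 on the log2 scale (edgeR adjusted p = 0.00429). The other tested genes of the list were called in neither clone, and the list's median log2 difference was 0.19 and 0.21 in the clones.

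Genes that handle pyruvate and lactate beyond Ldha were not called. Of 14 listed, 9 were tested and 0 were called by edgeR in each comparison and by DESeq2. Their number at an unadjusted p under 0.05 was 1 in Snord67KO-1, 0 in Snord67KO-2, 0 for both clones and 2 between the clones. Bsg, the chaperone of the lactate transporters, was closest to a call in Snord67KO-1 among those with high counts (log2 0.69 ± 0.25, edgeR adjusted p = 0.0690). Of all genes tested, edgeR called 10.0% higher in Snord67KO-1, 2.43% in Snord67KO-2, 6.20% for both clones and 1.80% between the clones. It called 8.17%, 0.747%, 5.87% and 2.19% lower in the same order. These shares stand beside the list above and each list of this paragraph. In the citric acid cycle all 16 listed genes were tested. In Snord67KO-1, Sucla2 was called higher (log2 1.02 ± 0.33, edgeR adjusted p = 0.0381), and Idh3a, Idh3b and Dlst fell by 0.85, 0.96 and 0.84 on the log2 scale, calls that DESeq2 did not make for any of the 4, while 0 were called by edgeR in Snord67KO-2 (4 at an unadjusted p under 0.05, and 0 with DESeq2), where Sdha, the gene of the list with the most counts, had an adjusted p of 0.261. Cs, citrate synthase, was called for both clones together, where it fell by 0.79 on the log2 scale (edgeR adjusted p = 0.0383, and 0.117 with DESeq2). Sucla2 was called higher there (log2 1.01 ± 0.31, edgeR adjusted p = 0.0408, and 0.160 with DESeq2). Dlst was called lower there (−0.75 ± 0.24, edgeR adjusted p = 0.0487, and 0.195 with DESeq2). Of 10 tested genes of the pentose phosphate and glycogen branches, Rpia and Rpe, the isomerase and epimerase of pentose phosphates, in Snord67KO-1 fell by 2.32 and 1.05 on the log2 scale, and 0 were called by edgeR in Snord67KO-2 (1 at an unadjusted p under 0.05, and 0 with DESeq2). In Snord67KO-1 DESeq2 called Rpia but not Rpe (adjusted p = 0.00845 and 0.150). Rpia reached 10 counts in 4T1 WT libraries alone, so its passing the filter is not independent of its difference. Tkt, transketolase, which had the most counts of the list, was not called, at log2 differences of 0.57 ± 0.26 and 0.39 ± 0.30.

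Hypoxia targets outside glycolysis had the highest median among the lists, 0.67 in Snord67KO-1 and 0.69 in Snord67KO-2. Of 8 tested, 4 were called higher in Snord67KO-1 and 1 in Snord67KO-2, beside 10.0% and 2.43% of all genes tested. P4ha1, a subunit of prolyl 4-hydroxylase, was called in both clones and had 12.05 ± 1.78 CPM in 4T1 WT, against 58.5 ± 3.89 in Snord67KO-1 and 33.0 ± 4.11 in Snord67KO-2. Its log2 fold change was 2.15 ± 0.29 (edgeR adjusted p = 0.000132) and 1.70 ± 0.33 (0.0101). With 7 to 9 counts in each 4T1 WT library, P4ha1 passed the filter through knockout libraries alone. Egln3, Bnip3l and Ndrg1 were called in Snord67KO-1, at log2 fold changes of 1.37, 0.88 and 0.68, whereas DESeq2 called P4ha1 alone in each clone. Bnip3 was called for both clones together, at 0.99 ± 0.30 (edgeR adjusted p = 0.0430, and 0.122 with DESeq2).

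Among the regulators 4 were tested. Hif1a, the oxygen-regulated subunit of HIF, named after its values were seen, had log2 differences of −0.01 ± 0.23 and 0.13 ± 0.25 in the clones and was not called. Myc had 132, 164 and 149 CPM in 4T1 WT, 29.7, 44.7 and 42.2 in Snord67KO-1, and 51.8, 89.5 and 78.0 in Snord67KO-2. All knockout libraries were below those of 4T1 WT, and in Snord67KO-1 Myc fell by 2.07 on the log2 scale (edgeR adjusted p = 8.96e-05), with −0.77 ± 0.26 in Snord67KO-2 (0.113, not called). In Snord67KO-2 Arnt, the partner subunit of HIF, fell by 1.45 on the log2 scale (edgeR adjusted p = 0.0428), a call that DESeq2 did not make (0.143). These are RNA counts and say nothing of the proteins.

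**Figure D5:**
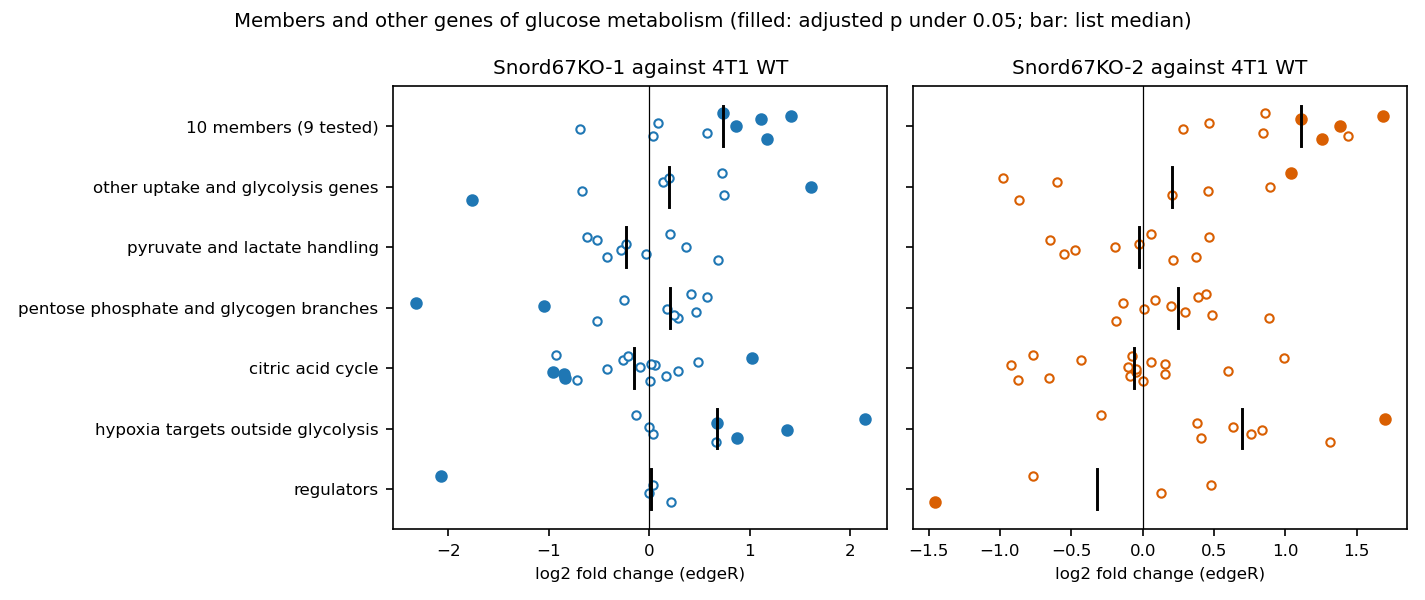
Each point is the log2 fold change of 1 tested gene against 4T1 WT in Snord67KO-1 (left) and Snord67KO-2 (right), for the members and 6 lists of related genes, with filled points for adjusted p under 0.05 in edgeR and a line for the median of each list, on axes of unequal range. The median is 0.74 and 1.11 for the tested members and 0.67 and 0.69 for hypoxia targets, beside −0.23 and −0.02 for pyruvate and lactate handling.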

How the data were processed

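The authors deposited 1 table of raw counts, the number of read 3′ ends at each position and gene name, for the 9 oxidized libraries. Per the labels and the study's methods, reads were trimmed with cutadapt, joined with pear and aligned with STAR, and the processing notes name mm10. The handling of duplicates, of reads that map to several places and of strand, and the rule behind the mispriming mark, are not given in the sources used here. Counts were summed per gene name and tested with edgeR 4.0.16 (R 4.3.3, limma 3.58.1), by the quasi-likelihood test with TMM normalization, for genes that reached 10 counts in 3 or more libraries, in 1 fit of 9 libraries without covariates, with Benjamini-Hochberg adjustment at 0.05. Positions were tested likewise with the log of the rest of the gene plus 1 as offset, where the rest held at least 50 counts. DESeq2 1.42.0 was an alternative. The scripts were tested on simulated data. Positions were placed on GENCODE M21 (GRCm38) and promoters are from RefSeq.

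The members and the gene lists were chosen with earlier results of these data known. The 10 members were all described, with leading positions of most. From the lists, called genes were named, and otherwise the gene with the highest count. Totals were 212463 to 737219 counts, 1 to 3 counts at most positions of the members, so intervals and p-values cover these libraries and counting error only. Unless the replicates were separate cultures, p-values measure technical spread. Alternatives changed the marked positions, normalization, tool, low-count filter, exonic positions, Rn45s, the replicate block and single libraries. Those on the Eno1 locus, library totals, marked positions with 4T1 WT replicate 2, the split by counts per position without that library, and bases before CTG were added after the data were examined.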

Additional observations from a re-analysis of the deposited data

Results flagged for a closer look

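Myc differed between the clones, with a log2 difference of 1.30 ± 0.29 in Snord67KO-2 against Snord67KO-1 (edgeR adjusted p = 0.0198) and 38.9 ± 8.06 CPM in Snord67KO-1 beside 73.1 ± 19.3 in Snord67KO-2. Arnt differed between them by −1.67 ± 0.37 on the same scale (edgeR adjusted p = 0.0206), at 44.9 ± 9.91 CPM in Snord67KO-1 and 10.7 ± 1.21 in Snord67KO-2. The Snord67KO-2 level rests on 2 to 5 counts in each library. Rpia differed by 2.18 ± 0.54 (edgeR adjusted p = 0.0309), at 4.79 ± 1.00 CPM in Snord67KO-1 and 18.1 ± 1.37 in Snord67KO-2. With DESeq2 the difference was called for Myc (adjusted p = 0.0353), not for Arnt (0.0994), and no adjusted p was given for Rpia, which reached 10 counts in no library of either clone. None of the 9 tested members was called between the clones. No group has 4 or more libraries, so single libraries were not compared with the rest of their group by a test.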

How the results depend on the processing

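Of 728 values of single members under the alternatives, 661 kept their direction and side of the threshold, 40 were no longer called, 2 were newly called (Gpi1 over exonic positions) and 25, none of them called, turned in sign. The causes were not tested. Counts are small, since 1 position named for a member reached 10 counts in 3 libraries.

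Genes called in Snord67KO-1 numbered 1146, and 575 with DESeq2, 277 with at least 50 counts, 721 over exonic positions, 686 with library totals, 2056 with no filter and 429 to 1084 with 1 library left out. In Snord67KO-2 they numbered 200, and 32 with library totals, 435 with no filter and 54 to 307 with 1 library left out. For both clones they numbered 759, and 389 with DESeq2, 272 with at least 50 counts, 321 with library totals, 483 without marked positions and 4T1 WT replicate 2, and 436 to 760 with 1 library left out. Between the clones they numbered 251, and 115 with DESeq2, 62 with at least 50 counts, 72 over exonic positions, 462 with no filter, 544 without marked positions and 4T1 WT replicate 2, and 52 to 467 with 1 library left out.

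Members called in Snord67KO-2 numbered 4, and 1 (Ldha) with library totals or without Snord67KO-2 replicate 2, and 2 (Aldoa and Ldha) without Snord67KO-2 replicate 3, a range of 1 to 4. They ranged from 4 to 5 in Snord67KO-1 and for both clones with 1 library left out, and were 0 between the clones. The difference in the summed share was 0.0772 percentage points without Rn45s in the total and 0.0460 to 0.0586 with 1 library left out. The difference in the exon 10 share of Pkm ranged from −17.9 to −4.03 points, and 0 positions of the members were called, with 1 library left out.

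Gapdh in Snord67KO-1 turned to −0.095 without marked positions, −0.094 with Eno1 also by locus, −0.081 with no filter, −0.061 with the replicate block and −0.13 without marked positions and 4T1 WT replicate 2, and ranged from −0.15 to 0.46 with 1 library left out. Pgam1 in Snord67KO-1 turned to −0.024 with no filter. Hk2 ranged from −0.51 (without Snord67KO-2 replicate 3) to 0.60 in Snord67KO-2 and reached −0.59 for both clones with 1 library left out, where it turned to 0.20 without marked positions and 0.085 without 4T1 WT replicate 2 as well. Between the clones, library totals gave −0.076 for Slc2a1, −0.093 for Gpi1, −0.28 for Aldoa and −0.26 for Tpi1, exonic positions −0.063 for Aldoa and −0.040 for Tpi1, and at least 50 counts −0.018 for Aldoa. With 1 library left out, these differences ranged from −0.066 to 0.15 for Aldoa, from −0.15 to 0.26 for Tpi1, and up to 0.051 for Pkm.

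Replicate numbers were also used as a block. Deviations of same-numbered libraries correlated at −0.16 to 0.35. Between 4T1 WT and Snord67KO-1 the values were −0.078 for replicate 1, 0.35 for replicate 2 and 0.30 for replicate 3. Whether the numbers pair samples of these groups was not tested and cannot be told from these values. With the replicate block, 1266 genes were called in Snord67KO-1, 278 in Snord67KO-2, 869 for both clones and 274 between the clones, and 5, 4, 6 and 0 members.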
